A study of Mus musculus with 31 samples.

Results

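Chemokine ligands are the small secreted proteins that direct leukocytes through tissue. Here they are all gene symbols that begin with Ccl, Cxcl, Xcl or Cx3cl followed by a digit, 40 of the 38406 gene symbols counted in each library. Of these, 25 averaged at least 1 CPM (counts per 1000000 gene counts) over the 31 libraries and are described, and 15 lay below that mean and are only counted. The libraries are bulk RNA-seq of CD45.2+ cells, the leukocytes of the tumour, sorted by flow cytometry from AT3-OVA tumours. The tumours grew from AT3-OVA cells, a triple negative mammary cancer line with ovalbumin as model antigen, placed in the mammary fat pad of wild type female C57BL/6 mice.

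Irradiated tumours received either 3 daily fractions of 4 Gy (3x4Gy) or 1 fraction of 20 Gy (1x20Gy), given by electron beam to the tumour alone through an opening in a lead shield. Mock groups (3x0Gy and 1x0Gy) had the same anaesthesia without radiation, so every mouse was anaesthetised. Tumours were taken at day 5 or day 13 after the last fraction. There were 6 libraries after 3x4Gy and 4 after 3x0Gy at day 5, 6 after 1x20Gy and 4 after 1x0Gy at day 5, and 7 after 1x20Gy and 4 after 1x0Gy at day 13. All RNA had an integrity number above 8.5. The age of the mice was not given in the sources used here. Sample codes differ between the days, so day and experiment cannot be told apart, and levels were compared within a day. The labels number the samples of a group but do not say that each came from another mouse, so p-values measure the spread between these samples.

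Chemokines bind G protein-coupled receptors on leukocytes, and each ligand group draws the cells that carry its receptor. Ligands of CXCR2 attract neutrophils, ligands of CXCR3 attract activated T cells and NK cells, and ligands of CCR2 attract monocytes. CCL3, CCL4 and CCL5 draw T cells and myeloid cells, CCL17 and CCL22 act on T cells through CCR4, and XCL1 acts on cross-presenting dendritic cells through XCR1. CX3CL1 (fractalkine) is made as a membrane-bound adhesion molecule that can be shed, and its receptor CX3CR1 is found on monocytes and macrophages. In bulk RNA a lower level can come from fewer cells of the producing type or from less RNA per cell, and these cannot be told apart.

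Promoter sequences of 4 members are printed here because Cx3cl1 fell in all 3 comparisons with a mock and the other 3 genes rose together in 1 of them. They are RefSeq sequences of GRCm38.p6, plus strand, from 100 bases before the RefSeq start to 10 bases after it. This start lies 4 bases downstream of the GENCODE M21 gene start given below for Cxcl1, 28 for Cxcl2 and 171 for Cx3cl1, and 2 upstream for Cxcl3. The Cx3cl1 stretch therefore lies inside the gene as GENCODE draws it. Capitals mark every match to a pattern bound by NF-kappaB proteins, GGGA followed by any 2 bases and TTCC. Matches on the 2 strands overlap within each run, and Cx3cl1 has none. The Cxcl1 stretch is chr5:90891145-90891254, that of Cxcl2 is chr5:90903799-90903908, that of Cxcl3 is chr5:90786001-90786110 and that of Cx3cl1 is chr8:94772080-94772189.
Cxcl1: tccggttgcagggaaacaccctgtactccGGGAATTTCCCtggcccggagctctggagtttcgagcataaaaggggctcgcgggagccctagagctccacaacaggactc
Cxcl2: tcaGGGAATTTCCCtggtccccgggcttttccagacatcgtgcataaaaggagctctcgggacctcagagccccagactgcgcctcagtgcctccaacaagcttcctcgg
Cxcl3: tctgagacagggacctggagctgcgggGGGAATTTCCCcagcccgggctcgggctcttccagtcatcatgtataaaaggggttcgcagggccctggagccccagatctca
Cx3cl1: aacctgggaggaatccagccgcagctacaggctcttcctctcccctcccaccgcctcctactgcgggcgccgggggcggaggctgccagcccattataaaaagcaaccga

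The match on the plus strand starts at position -71 in Cxcl1, -97 in Cxcl2 and -73 in Cxcl3. Promoter windows of 300 bases (250 before to 50 after the start) were searched on both strands in 32851 RefSeq promoters, among them 21 windows of 18 described members that matched by symbol. The NF-kappaB pattern stood in 1.47% of all windows and in those of 5 members, Ccl1, Cxcl1, Cxcl2, Cxcl3 and Cxcl10. The interferon response pattern (GAAA, any 2 bases, GAAA) stood in 3.44% of all windows and in those of Cxcl10 and Cxcl14. The STAT pattern TTCNNNGAA stood in 8.3% and in those of Ccl17 and Cxcl14. The Cx3cl1 window matched none of the 3 patterns. A match describes the sequence and is not a measured binding site.

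Libraries held 2641229 to 7541144 gene counts, so 1 count stood for 0.131 to 0.401 CPM. Ptprc, which encodes CD45, was at 367 to 1919 CPM and present in every library, and it rose after 3x4Gy relative to 3x0Gy (log2 fold change 0.89, SE 0.26, adjusted p = 0.0262). Markers of cells outside the sort were present too: 5 of 8 fibroblast markers and 9 or 10 of 10 epithelial and tumour markers passed the filter on low counts. Reads outside annotated genes took 5.65% to 32.0% of the uniquely aligned reads, and the 3 irradiated groups each had a higher mean share than their mocks. No 2 replicates agreed within sampling noise: over 69 pairs the chi-square divided by its degrees of freedom was 3.67 to 69.3.

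Averaged over all 31 libraries, Ccl4, Cxcl2, Ccl5 and Xcl1 had the highest levels per length, at 477, 355, 333 and 189 CPM per kb of exon. Cxcl16, a membrane-bound ligand of CXCR6, followed at 175, Cxcl9 at 152, Ccl8 at 133 and Ccl6 at 123 CPM per kb. The order differed between groups. After 3x4Gy, for example, Xcl1 was at 132 CPM per kb, below Cxcl16 at 226, and in 1x0Gy libraries of day 5 Cxcl16 was at 251, above Ccl5 at 227 and Cxcl2 at 196. In CPM, without division by length, Cxcl2 (729), Cxcl16 (533) and Cxcl9 (460) had the highest means. The summed CPM of the 25 described genes was 3728 ± 961 after 3x4Gy (SD, n = 6) against 3428 ± 927 after 3x0Gy (n = 4). It was 4005 ± 771 after 1x20Gy (n = 6) against 3245 ± 352 after 1x0Gy (n = 4) at day 5, and 2713 ± 413 (n = 7) against 2728 ± 549 (n = 4) at day 13, and in each comparison the ranges overlapped.

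**Figure D1:**
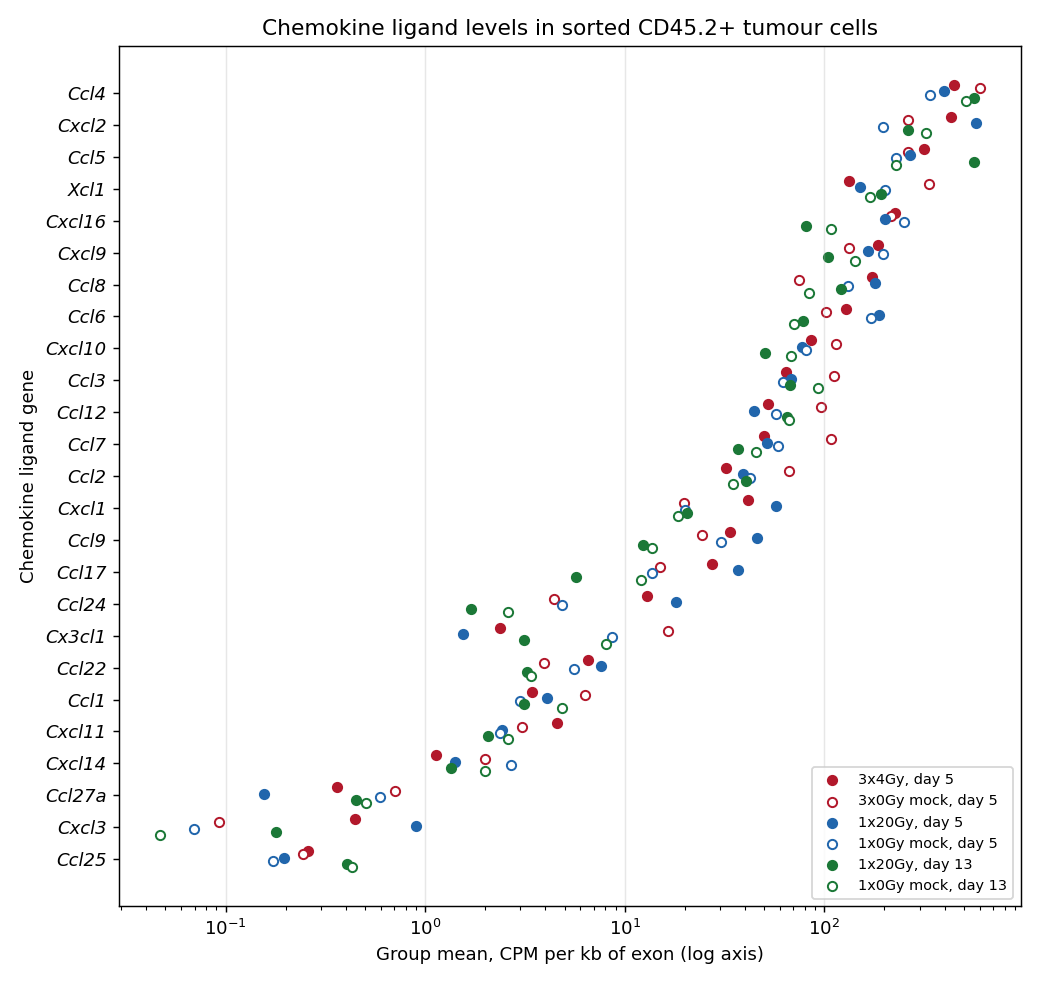
Group means of the 25 described chemokine ligands in CPM per kb of exon on a log axis, with filled points for irradiated and open points for mock groups. Genes are ordered by their mean over all libraries, with Ccl4, Cxcl2 and Ccl5 at the top. The group means of Cx3cl1 (1.54 to 16.4 CPM per kb) and of its neighbour Ccl24 (1.70 to 18.2 CPM per kb) both spread widely.

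Of the 15 members below a mean of 1 CPM, 9 had some counts. They were Cxcl5 (0.820 CPM), Cxcl17, Cxcl12, Cxcl13, Ccl20, Ccl11, Ccl19, Ccl28 and Ccl21a. The other 6 (Ccl19-ps1, Ccl19-ps3, Ccl21b, Ccl21c, Ccl26 and Ccl27b) had 0 counts in all libraries. Ccl19, Ccl21 and Ccl27 genes have near-identical copies, so their low or absent counts are uncertain. Just inside the threshold lay Ccl27a at 1.05 and Cxcl3 at 1.13 CPM. Ccl27a did not pass the filter on low counts in any comparison, and Cxcl3 did not pass it at day 13, which left 24 members tested at day 5 and 23 at day 13.

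At day 5 after 3x4Gy, Cx3cl1, Xcl1, Ccl3 and Ccl1 fell and Ccl8 rose relative to 3x0Gy. With edgeR's quasi-likelihood test and a Benjamini-Hochberg adjusted p below 0.05 this is 5 of 24 members (20.8%), 1 higher and 4 lower. The background is 12.3% of the 12021 genes tested, 5.2% higher and 7.09% lower. The median log2 fold change of the 24 members was 0.18, against -0.004 for all genes. After 1x20Gy at day 5, Cxcl1, Cxcl2, Cxcl3 and Ccl17 rose and Cx3cl1 fell relative to 1x0Gy, again 5 of 24 members (20.8%), here 4 higher and 1 lower. Without Cxcl3, which passed the filter on low counts only through irradiated libraries, it is 4 of 23. The background is 8.55%, with 3.67% higher and 4.88% lower, and the members' median was 0.21 against 0.02 for all genes. At day 13 after 1x20Gy, Ccl5 rose and Cx3cl1 fell. These 2 of 23 members (8.7%) are close to the background of 8.05% (4.22% higher and 3.83% lower), and the members' median was -0.30 against 0.01 for all genes.

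**Figure D2:**
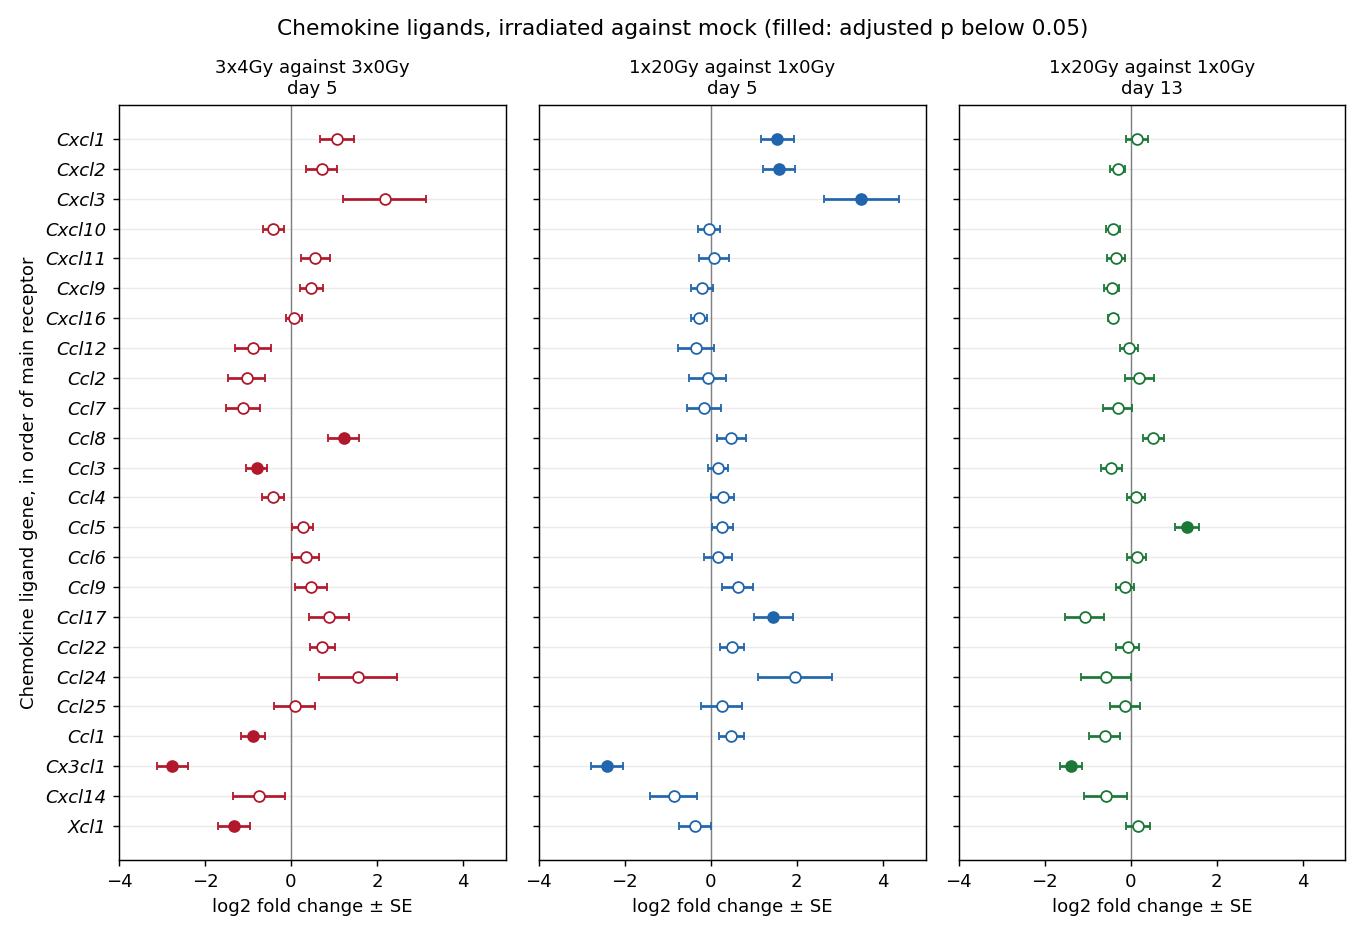
log2 fold changes with their standard errors (SE) for each chemokine ligand tested, in order of the main receptor assigned here (Ccl8 with the CCR2 ligands). There is 1 panel for 3x4Gy over 3x0Gy and 1 panel a day for 1x20Gy over 1x0Gy. Filled points have an adjusted p below 0.05, and Cx3cl1 is filled on the lower side in all 3 panels.

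Cx3cl1 (chromosome 8, 94772009 to 94782427 on GRCm38, plus strand) was the member with the largest fall, and it fell in all 3 comparisons. After 3x4Gy its lowest, median and highest libraries had 3.71, 7.6 and 16.9 CPM, against 103, 53.2, 41.7 and 59.4 CPM in the 3x0Gy libraries. The highest irradiated library thus lay below every mock library. The means were 9.29 ± 5.01 (SD, n = 6) and 64.4 ± 26.9 CPM (n = 4), a log2 fold change of -2.76 with an SE of 0.36 (edgeR adjusted p = 3.42e-05). After 1x20Gy at day 5 the libraries had 1.74 (lowest), 5.25 (median) and 9.96 CPM (highest), against 27.7, 25.9, 51.0 and 31.1 CPM after 1x0Gy. Again the groups did not overlap, with a log2 fold change of -2.42 with an SE of 0.37 (adjusted p = 0.000315). At day 13 the 1x20Gy libraries had 8.04, 10.6 and 20.2 CPM (lowest, median, highest), against 26, 23.8, 49.0 and 28.5 CPM after 1x0Gy. Here too all 7 irradiated libraries lay below all 4 mocks, with a log2 fold change of -1.38 with an SE of 0.26 (adjusted p = 0.00465). Leaving out any library kept the call in each comparison, with log2 fold changes from -2.98 to -2.42, from -2.65 to -2.15 and from -1.54 to -1.11.

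Fibroblast markers, which lie outside the sort, were lower too in the irradiated groups. Summed fibroblast markers were at 11.6 to 29.2 CPM after 3x4Gy against 68.5 to 133 CPM after 3x0Gy, at 9.32 to 53.8 against 31.9 to 130 CPM after 1x20Gy and 1x0Gy at day 5, and at 10.8 to 24.3 against 23.7 to 54.2 CPM at day 13. Of the 5 fibroblast markers tested, 5, 1 and 3 fell in these comparisons. Of the epithelial and tumour markers, 3 of 10 and 5 of 10 fell at day 5, while at day 13 3 of 9 rose and 1 fell. Their sums were 171 to 780 against 487 to 1086 CPM after 3x4Gy and 3x0Gy, 157 to 535 against 448 to 631 CPM after 1x20Gy and 1x0Gy at day 5, and 783 to 2307 against 715 to 986 CPM at day 13. Endothelial markers went the other way, with sums of 46.8 to 80.3 against 24.1 to 41.1 CPM, 34.8 to 68.5 against 27.7 to 39.4 CPM and 29.8 to 50.5 against 26.6 to 32.0 CPM in the same order, and 1 marker higher each time (Kdr, Kdr and Vwf). The part of these cells in the Cx3cl1 result was not tested beyond a covariate, which cannot separate them from irradiation. The fibroblast sums did not overlap between 3x4Gy and 3x0Gy. At day 13 fibroblast markers fell while 3 of 9 epithelial and tumour markers rose, and the covariate averages both lists. With the mean log2 CPM of both marker lists as a covariate the Cx3cl1 calls ended, at log2 fold changes of -1.99 (SE 0.51, adjusted p = 0.0625), -1.75 (SE 0.48, adjusted p = 0.0731) and -1.09 (SE 0.32, adjusted p = 0.0841). Its receptor gene Cx3cr1 was at 690.3 ± 209.9 against 1049.9 ± 83.3 CPM after 3x4Gy and 3x0Gy (adjusted p = 0.135) and was not called in any of the 3 comparisons.

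**Figure D3:**
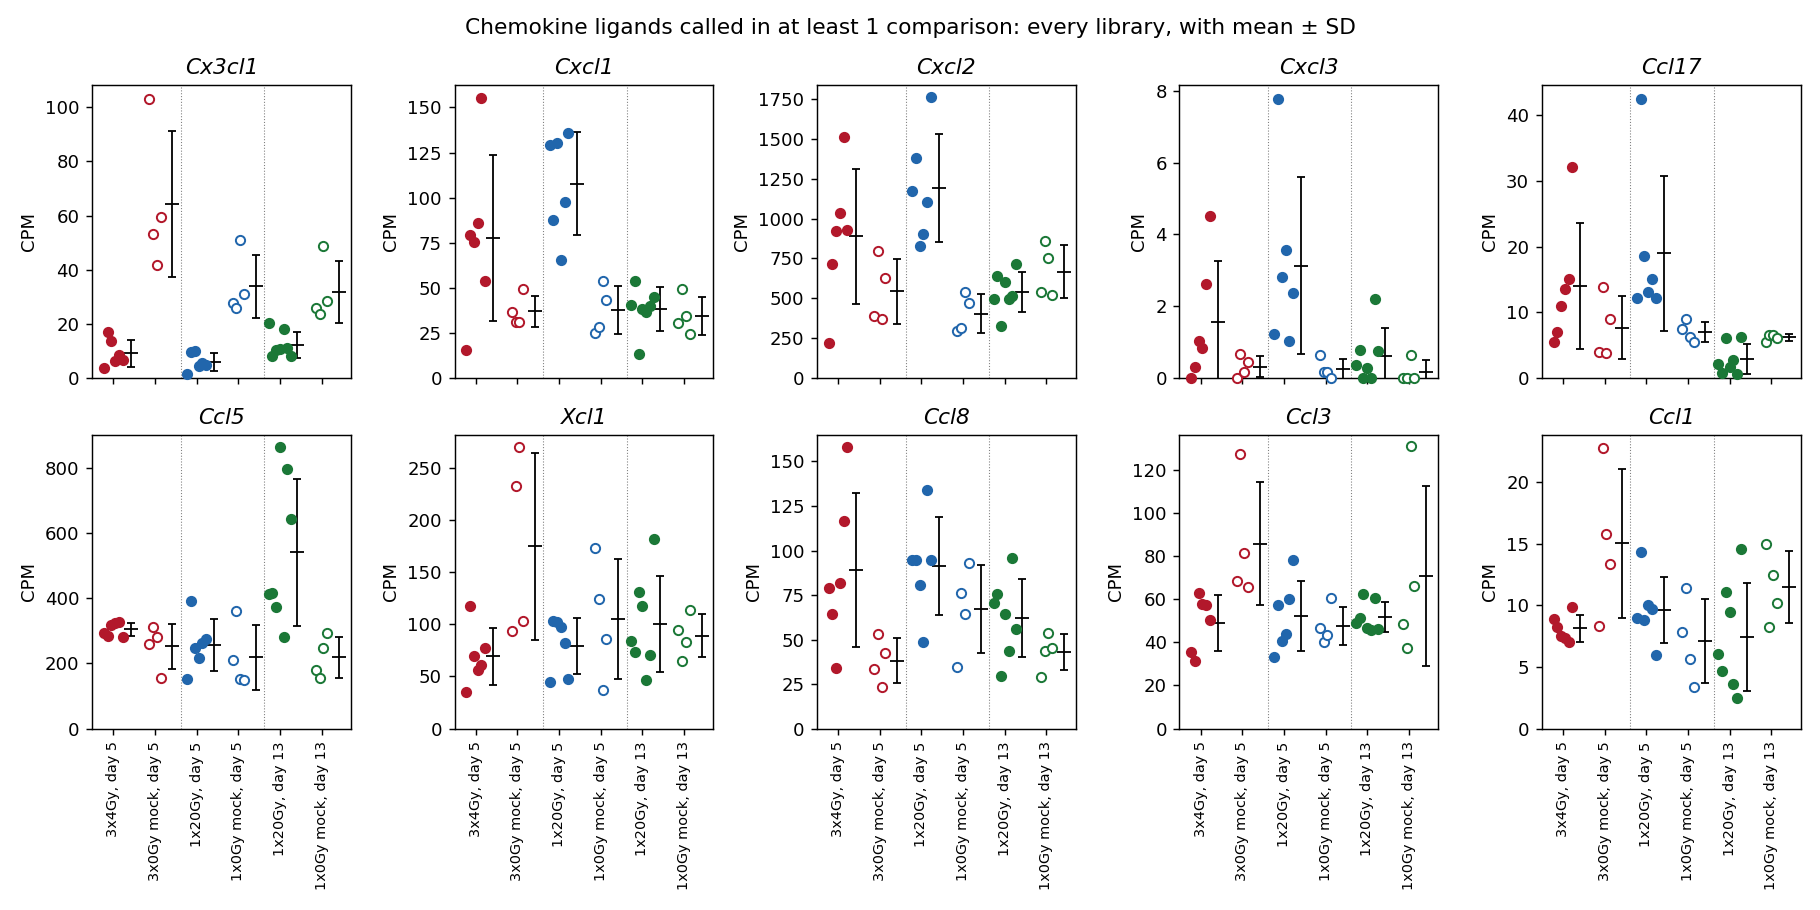
CPM of the 10 chemokine ligands called in at least 1 comparison, 1 point per library, with mean ± SD beside each group. Axes start at 0, which cuts SD bars that reach below it. Filled points are irradiated and open points are mock libraries. Cx3cl1 lies lower in every irradiated group, and Cxcl1 and Cxcl2 lie higher after 1x20Gy at day 5 than in all 4 mocks.

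Of the CXCR2 ligands, which recruit neutrophils, Cxcl1, Cxcl2 and Cxcl3 rose at day 5 after 1x20Gy. These genes lie together on chromosome 5. Cxcl5, a further CXCR2 ligand below a mean of 1 CPM, was not tested. It was at 0.678 ± 0.732 CPM after 1x20Gy against 1.34 ± 0.694 CPM after 1x0Gy, with overlap. Cxcl2 (90903871 to 90905938, plus strand) was at 831, 1137 and 1760 CPM (lowest, median, highest) after 1x20Gy, against 293, 313, 541 and 473 CPM after 1x0Gy. All 6 irradiated libraries lay above all 4 mocks. The means were 1191 ± 340 and 405 ± 121 CPM, a log2 fold change of 1.59 with an SE of 0.37 (adjusted p = 0.00881) that kept its call without any of the 10 libraries (1.41 to 1.77). Cxcl1 (90891241 to 90893115, plus strand) was at 65.4, 113 and 136 CPM after 1x20Gy, against 25, 28.6, 53.7 and 43.2 CPM after 1x0Gy. These groups did not overlap either, with a log2 fold change of 1.55 with an SE of 0.39 (adjusted p = 0.0141). That call ended without 1x0Gy library 1 (1.39, adjusted p = 0.055). Cxcl3 (90786103 to 90789600, plus strand) had 5, 45, 15, 16, 5 and 11 counts after 1x20Gy, against 5, 1, 1 and 0 counts after 1x0Gy. In CPM the irradiated libraries had 1.03 to 7.76 and the mocks 0 to 0.654, without overlap (log2 fold change 3.50, SE 0.87, adjusted p = 0.0133). Cxcl3 passed the filter on low counts through irradiated libraries, and its call ended without 1x0Gy library 3 (3.35, adjusted p = 0.0515) or 4 (3.17, adjusted p = 0.0543).

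After 3x4Gy these 3 genes had positive log2 fold changes but were not called by edgeR. DESeq2, and edgeR without the filter on low counts, called Cxcl1 there. Cxcl2 was at 221, 924 and 1510 CPM (lowest, median, highest), against 387, 794, 372 and 626 CPM after 3x0Gy (log2 fold change 0.71, SE 0.36, adjusted p = 0.19). The groups overlapped, and library 1 of 3x4Gy was the lowest of both for Cxcl2 and for Cxcl1. Cxcl1 was at 77.6 ± 45.8 against 37.1 ± 8.50 CPM (1.07, SE 0.39, adjusted p = 0.0727), and Cxcl3 at 1.56 ± 1.71 against 0.323 ± 0.295 CPM (2.18, SE 0.97, adjusted p = 0.14). At day 13 Cxcl2 was at 325, 513 and 713 CPM after 1x20Gy, against 540, 858, 750 and 523 CPM after 1x0Gy (-0.30, SE 0.18, adjusted p = 0.35). Cxcl1 was at 38.3 ± 12.3 against 34.7 ± 10.6 CPM at day 13 (0.15, SE 0.26, adjusted p = 0.78), and both genes overlapped between the groups.

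Neutrophil markers were compared in the same groups. Their summed level was 33.1 to 537 CPM after 1x20Gy against 23.3 to 83.0 CPM after 1x0Gy at day 5, with 1 of 5 markers called (Mmp9, 2.71, SE 0.77, adjusted p = 0.0294), and 96.5 to 244 against 39.4 to 92.3 CPM at day 13, with 3 of 5 called. After 3x4Gy it was 12.9 to 187 against 13.0 to 94.9 CPM after 3x0Gy, with 0 of 5 called. The receptor gene Cxcr2 rose at day 5 after 1x20Gy, at 2.73 ± 1.71 against 0.455 ± 0.151 CPM (2.53, SE 0.72, adjusted p = 0.0298). Like Cxcl3, it passed the filter on low counts through irradiated libraries, and its CPM overlapped between the groups. In 1x20Gy libraries 3 and 4 at day 5 the neutrophil sums were 45.5 and 33.1 CPM, inside the 1x0Gy range. Cxcl2 was at 831 and 902 CPM there, the lowest of the 1x20Gy group but above all 1x0Gy libraries. Libraries 1, 2, 5 and 6 had higher neutrophil sums of 129, 537, 175 and 265 CPM. Their Cxcl2 was higher too, at 1170, 1377, 1105 and 1760 CPM. The part of neutrophils in the Cxcl2 result was not tested. With the fibroblast and epithelial marker covariate the calls of Cxcl2 (1.00, SE 0.47, adjusted p = 0.331), Cxcl1 (1.43, SE 0.51, adjusted p = 0.191) and Cxcl3 (1.87, SE 0.92, adjusted p = 0.354) ended.

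**Figure D4:**
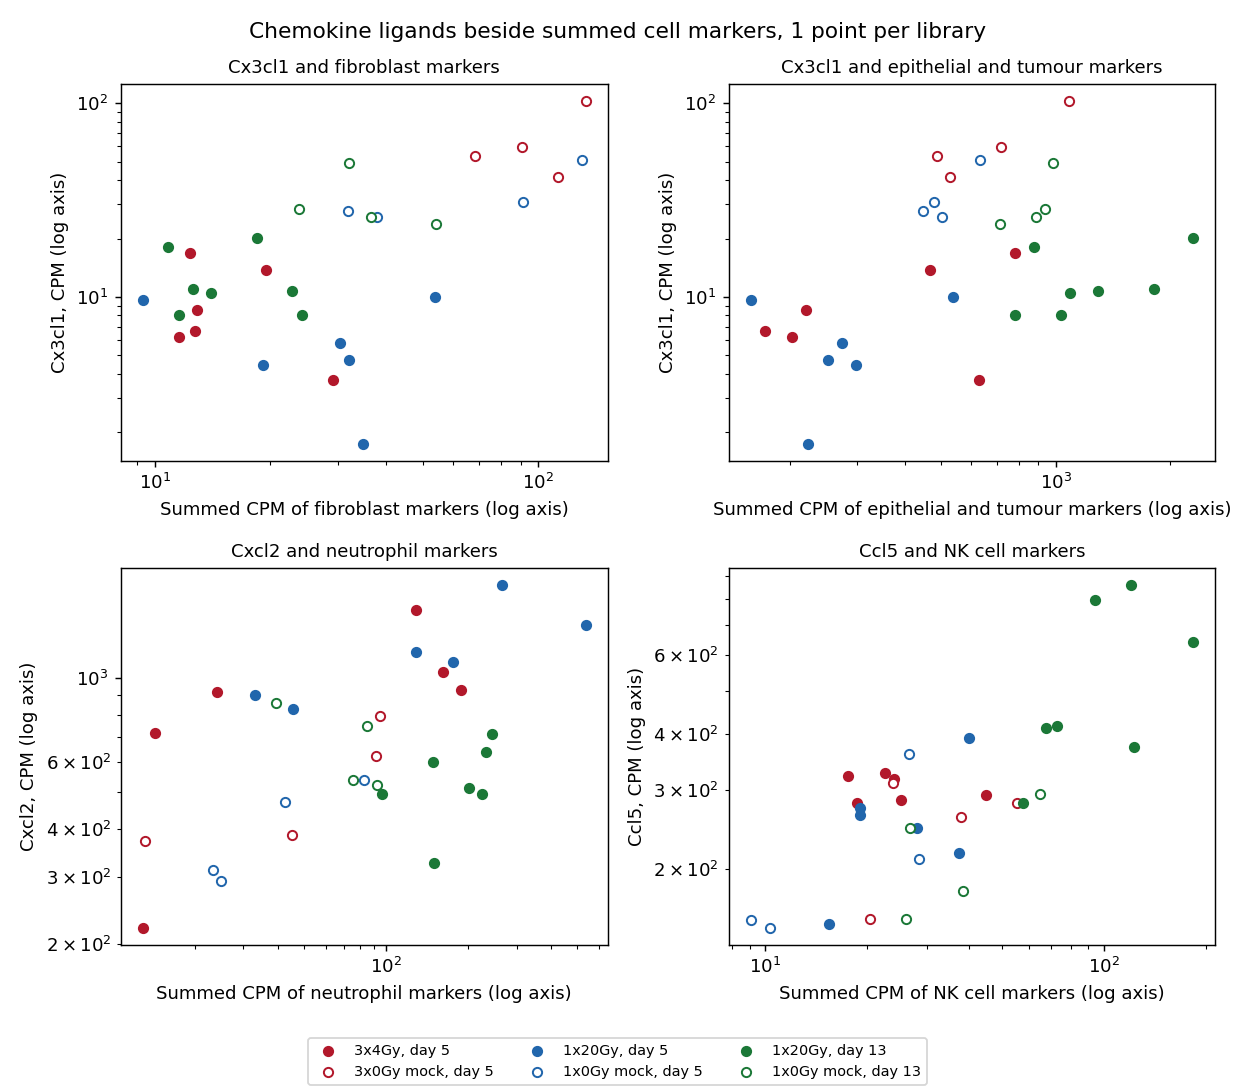
Cx3cl1, Cxcl2 and Ccl5 in CPM against summed CPM of cell markers, 1 point per library, both axes log. Filled points are irradiated and open points are mock libraries, and the 7 1x20Gy libraries of day 13 lie at neutrophil sums of 96.5 to 244 CPM with Cxcl2 at 325 to 713 CPM.

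CCR4 ligands are made mainly by dendritic cells and macrophages. Ccl17 (chromosome 8, 94810453 to 94812036, plus strand) rose at day 5 after 1x20Gy, with 12.2, 14.1 and 42.4 CPM (lowest, median, highest), against 7.46, 9.0, 6.31 and 5.54 CPM after 1x0Gy. The groups did not overlap, and 1 library at 42.4 CPM stood far above the other 5. The log2 fold change was 1.46 (SE 0.46, adjusted p = 0.0493), close to the threshold. The call held without 2 of the 10 libraries in turn and ended without each of the other 8, at adjusted p-values of up to 0.151, and without the library at 42.4 CPM it was 1.05 (adjusted p = 0.135). The call also ended with the marker covariate (0.51, SE 0.50, adjusted p = 0.695). With RLE, upper quartile or library size scaling in edgeR it ended at adjusted p = 0.0508, 0.0537 and 0.058. It ended with limma voom (adjusted p = 0.054) and with the title number as a replicate block in edgeR (adjusted p = 0.0865). Ccl17 was at 14 ± 9.60 against 7.67 ± 4.81 CPM after 3x4Gy and 3x0Gy (0.89, SE 0.47, adjusted p = 0.22) and at 2.92 ± 2.34 against 6.21 ± 0.509 CPM after 1x20Gy and 1x0Gy at day 13 (-1.07, SE 0.45, adjusted p = 0.16). Ccl22 was at 15.2 ± 5.47 against 9.12 ± 1.58 CPM after 3x4Gy and 3x0Gy (0.73, SE 0.29, adjusted p = 0.104) and was not called in any of the 3 comparisons. Mature dendritic cell markers were summed at 411 to 703 against 256 to 370 CPM after 3x4Gy and 3x0Gy, with 3 of 5 higher (Ccr7, Relb and Cd40), and at 424 to 697 against 299 to 490 CPM after 1x20Gy and 1x0Gy at day 5, with 1 of 5 higher (Relb).

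Among the group of Ccl3, Ccl4, Ccl5, Ccl6 and Ccl9, Ccl5 (chromosome 11, 83525778 to 83530518, minus strand) rose at day 13. CCL5 is a product of activated T cells and NK cells that draws T cells and myeloid cells. It was at 280, 416 and 863 CPM (lowest, median, highest) after 1x20Gy, against 179, 154, 247 and 294 CPM after 1x0Gy. The groups overlapped in 1 irradiated library, at 280 CPM, and the other 6 lay above all mocks. The means were 541 ± 226 (n = 7) and 218 ± 63.6 CPM (n = 4), a log2 fold change of 1.31 with an SE of 0.28 (adjusted p = 0.0101). The call held without any of the 11 libraries, with values from 1.16 to 1.48. At day 5 Ccl5 was at 304 ± 20.4 against 252 ± 68.3 CPM after 3x4Gy and 3x0Gy (0.27, SE 0.24, adjusted p = 0.48) and at 257 ± 79.2 against 218 ± 99.7 CPM after 1x20Gy and 1x0Gy (0.27, SE 0.24, adjusted p = 0.56).

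Lymphocyte markers were also higher at day 13. Summed NK cell markers were at 57.8 to 184 CPM after 1x20Gy against 26 to 64.8 CPM after 1x0Gy, with 3 of 4 markers higher (Ncr1, Klra8 and Eomes). Summed T cell markers were at 455 to 957 against 291 to 500 CPM, with 3 of 6 higher (Cd3e, Cd2 and Lck). Their part in the Ccl5 result was not tested. With the fibroblast and epithelial marker covariate Ccl5 kept its size (1.31, SE 0.34) and missed the threshold (adjusted p = 0.0569).

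Ccl3 (chromosome 11, 83647844 to 83649355, minus strand), an attractant of monocytes, T cells and NK cells, fell after 3x4Gy. Its libraries had 31.3, 53.9 and 62.8 CPM (lowest, median, highest), against 68.7, 128, 81.4 and 65.7 CPM after 3x0Gy. All irradiated libraries lay below all mocks, with a log2 fold change of -0.80 with an SE of 0.24 (adjusted p = 0.0308). Ccl4, its close relative on the same chromosome, was at 295 ± 107 against 395 ± 135 CPM (-0.42, SE 0.27, adjusted p = 0.31). Ccl3 was at 52.3 ± 16.2 against 47.7 ± 8.91 CPM after 1x20Gy and 1x0Gy at day 5 (0.17, SE 0.24, adjusted p = 0.74). Neither Ccl4, Ccl6 nor Ccl9 was called in any of the 3 comparisons, with log2 fold changes between -0.42 and 0.63. Ccl6 overlaps the gene E230016K23Rik on the other strand, and the strand setting of the counting was not given in the sources used here.

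Xcl1 (chromosome 1, 164931644 to 164935527, minus strand), which NK cells and CD8 T cells secrete, fell after 3x4Gy. The libraries had 34.6, 65.2 and 117 CPM (lowest, median, highest), against 93.2, 232, 269 and 103 CPM after 3x0Gy. A single irradiated library, at 117 CPM, reached into the mock range, and the log2 fold change was -1.33 (SE 0.37, adjusted p = 0.02). Xcl1 overlaps Gm20743 on the other strand. It was at 79.2 ± 26.8 against 105 ± 57.7 CPM after 1x20Gy and 1x0Gy at day 5 (-0.37, SE 0.37, adjusted p = 0.61) and at 100.5 ± 45.8 against 89.0 ± 20.8 CPM at day 13 (0.17, SE 0.28, adjusted p = 0.76). Summed NK cell markers were at 17.5 to 44.8 against 20.4 to 55.4 CPM after 3x4Gy and 3x0Gy, with 1 of 4 lower (Klrb1c), and their part in the fall was not tested. Xcr1, the gene of its receptor on type 1 dendritic cells, was at 62.7 ± 20.4 against 57.9 ± 15.6 CPM (0.12, SE 0.27, adjusted p = 0.79).

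Ccl1 (chromosome 11, 82176657 to 82305690, minus strand), a ligand of CCR8, fell after 3x4Gy. The libraries had 7.00, 7.87 and 9.90 CPM (lowest, median, highest), against 8.29, 22.8, 15.8 and 13.3 CPM after 3x0Gy. The groups overlapped through 3x0Gy library 1 alone, and the log2 fold change was -0.88 (SE 0.28, adjusted p = 0.0396). Its receptor gene Ccr8 did not pass the filter on low counts.

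Ccl8 (chromosome 11, 82115185 to 82116799, plus strand) rose after 3x4Gy. It was grouped here with Ccl2, Ccl7 and Ccl12, ligands of CCR2 that draw monocytes, and these 3 were not called by edgeR. Which receptor mouse CCL8 uses was not examined. Ccl8 was at 34.1, 80.4 and 158 CPM (lowest, median, highest), against 33.2, 52.9, 23.3 and 42.7 CPM after 3x0Gy. The groups overlapped in the lowest irradiated library, and the log2 fold change was 1.23 (SE 0.36, adjusted p = 0.0272). Ccl2 was at 36.7 ± 19.7 against 75.5 ± 53.0 CPM (-1.03, SE 0.43, adjusted p = 0.114), Ccl7 at 39.8 ± 27.5 against 86.6 ± 52.1 CPM (-1.12, SE 0.39, adjusted p = 0.0649) and Ccl12 at 27.9 ± 14.3 against 51.9 ± 28.3 CPM (-0.88, SE 0.41, adjusted p = 0.16). Ccl7 was called lower by DESeq2, by limma voom, and by edgeR with upper quartile or library size scaling or without the filter. After 1x20Gy none of the 4 was called at either day. Ccr2, the receptor gene of Ccl2, Ccl7 and Ccl12 and also a monocyte marker, rose after both regimens at day 5. It was at 139 ± 27.2 against 63.4 ± 31.9 CPM for 3x4Gy and 3x0Gy (1.12, SE 0.25, adjusted p = 0.0048). For 1x20Gy and 1x0Gy it was at 176 ± 35.2 against 98.8 ± 19.8 CPM (0.88, SE 0.24, adjusted p = 0.0266).

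The other 3 falls and the rise after 3x4Gy depended on single libraries, unlike that of Cx3cl1. The Xcl1 call ended without 3x0Gy library 2 (-1.17, adjusted p = 0.0696) or 3 (-1.05, adjusted p = 0.0807). That of Ccl3 ended without 3x0Gy library 2 (-0.55, adjusted p = 0.143) or 3x4Gy library 1, 2 or 6 (0.0595, 0.0638, 0.051). That of Ccl8 ended without 3x0Gy library 1, 3 or 4 (0.0684, 0.0819, 0.0504) or 3x4Gy library 5 or 6 (0.0518, 0.0705), and that of Ccl1 without any of 8 of the 10 libraries (adjusted p up to 0.175). With all 8 mocks of day 5 as 1 group, a choice made after seeing the data, none of these 4 was called, at -0.99 for Xcl1 (adjusted p = 0.0534), -0.42 for Ccl3 (0.264), 0.77 for Ccl8 (0.0923) and -0.40 for Ccl1 (0.381). Cx3cl1 stayed called, and Cxcl1, Cxcl2 and Cxcl3 were then called for 3x4Gy. With the marker covariate the log2 fold changes were -1.75 for Xcl1 (SE 0.50, adjusted p = 0.101), -1.13 for Ccl3 (SE 0.35, 0.131), 0.93 for Ccl8 (SE 0.52, 0.404) and -1.35 for Ccl1 (SE 0.37, 0.0858).

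The CXCR3 ligands Cxcl9, Cxcl10 and Cxcl11, which interferon gamma induces and which draw activated T cells, were not called in any of the 3 comparisons. Cxcl9 was at 293, 544 and 971 CPM (lowest, median, highest) after 3x4Gy, against 305, 416, 299 and 585 CPM after 3x0Gy (0.47, SE 0.27, adjusted p = 0.25). It was at 404, 515 and 612 CPM after 1x20Gy at day 5, against 423, 796, 486 and 658 CPM after 1x0Gy (-0.20, SE 0.26, adjusted p = 0.71), and at 182, 340 and 387 CPM at day 13, against 362, 465, 508 and 377 CPM (-0.44, SE 0.17, adjusted p = 0.13). The groups overlapped each time. Cxcl10 was at 193 ± 53.7 against 257 ± 111 CPM after 3x4Gy and 3x0Gy (-0.41, SE 0.25, adjusted p = 0.27) and at 114 ± 18.1 against 152 ± 42.7 CPM at day 13 (-0.41, SE 0.16, adjusted p = 0.13). Cxcl11, annotated as a polymorphic pseudogene in GENCODE M21, was at 17.3 ± 7.77 against 11.6 ± 5.15 CPM after 3x4Gy and 3x0Gy (0.57, SE 0.34, adjusted p = 0.27). Cxcl10 and Cxcl11 overlap Art3 on the other strand.

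Cxcl16, second to Cxcl2 in CPM averaged over all 31 libraries but not within day 13, was close to the threshold at day 13, and DESeq2 called it lower there, as did edgeR with upper quartile or library size scaling. It was at 211, 243 and 309 CPM (lowest, median, highest) after 1x20Gy, against 267, 309, 402 and 326 CPM after 1x0Gy (-0.41, SE 0.12, adjusted p = 0.0571), and 1 irradiated library reached into the mock range. At day 5 it was at 549, 664 and 805 CPM after 3x4Gy, against 542, 934, 536 and 592 CPM after 3x0Gy, and at 452, 615 and 758 CPM after 1x20Gy, against 731, 660, 827 and 816 CPM after 1x0Gy, with overlap in both (adjusted p = 0.839 and 0.401). Macrophage markers, summed at 6498 to 8938 CPM after 1x20Gy against 8752 to 11687 CPM after 1x0Gy at day 13, had 4 of 7 lower (C1qb, C1qc, Apoe and Csf1r). The receptor gene Cxcr6, found on T cells, rose at day 13, at 141 ± 35.4 against 81.6 ± 23.3 CPM (0.78, SE 0.20, adjusted p = 0.0258). Cxcl16 overlaps Zmynd15 on the other strand.

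The remaining members were low. Ccl24, an eosinophil attractant that acts through CCR3, spread most widely, at 6.21, 11.3 and 88.3 CPM (lowest, median, highest) after 1x20Gy at day 5, against 1.18, 3.21, 11.7 and 9.11 CPM after 1x0Gy (1.96, SE 0.86, adjusted p = 0.17). Its library at 88.3 CPM is the one with the highest Ccl17. Mast cell, basophil and eosinophil markers were summed at 22.2 to 52.6 CPM after 1x20Gy against 6.15 to 13.2 CPM after 1x0Gy at day 5. Of the 6 markers 4 were tested and 3 were higher (Cpa3, Mcpt8 and Gata2). Siglecf was not among these, and the sum does not separate eosinophils from mast cells and basophils. Cxcl14, Ccl25 and Ccl27a had group means between 0.369 and 4.93 CPM, and neither Cxcl14 nor Ccl25 was called in any of the 3 comparisons.

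After 3x4Gy 2 members lay wholly below the mock (Ccl3 and Cx3cl1) and 0 wholly above, where groups did not overlap for 9.66% of all genes (4.03% above, 5.63% below). After 1x20Gy at day 5 there were 4 above (Cxcl1, Cxcl2, Cxcl3 and Ccl17) and 1 below (Cx3cl1), where groups did not overlap for 11.3% of genes (4.28% above, 7.07% below), and Cxcl3 is among them only because irradiated libraries passed it through the filter. At day 13 there were 0 above and 1 below (Cx3cl1), where groups did not overlap for 6.93% of genes (3.22% above, 3.71% below).

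Differences between the regimens and between the days were tested as such. The 3x4Gy and 1x20Gy responses at day 5 differed for 0 of 24 members by edgeR (0% of the 12021 genes), DESeq2 and limma voom, with 2 members at an unadjusted p below 0.05. These were Ccl1 (difference of log2 fold changes -1.36, SE 0.40, adjusted p = 0.74) and Ccl3 (-0.97, SE 0.34, adjusted p = 0.76). The members called after only 1 regimen are therefore not shown to differ between regimens. The 1x20Gy response at day 13 differed from that at day 5 for 1 of 24 members, Cxcl2 (-1.87, SE 0.44, adjusted p = 0.0451), beside 0.423% of 12061 genes. Its level was 541 ± 125 against 668 ± 164 CPM in 1x20Gy and 1x0Gy at day 13, and 1191 ± 340 against 405 ± 121 CPM at day 5. This call is close to the threshold: it held without 3 of the 21 libraries in turn and ended without each of the other 18, with values from -2.05 to -1.73. Ccl17 (-2.51, SE 0.68, adjusted p = 0.0852), Cxcl1 (-1.38, SE 0.50, adjusted p = 0.204), Ccl5 (1.06, SE 0.39, adjusted p = 0.207) and Cx3cl1 (1.05, SE 0.50, adjusted p = 0.386) were not called.

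Between the mock groups 3x0Gy and 1x0Gy (n = 4 each) 0 of 24 members were called by edgeR (0% of 12021 genes), DESeq2 and limma voom, with 5 at an unadjusted p below 0.05. All 5 were higher in 3x0Gy. They were Ccl1 at 15.1 ± 6.04 against 7.08 ± 3.41 CPM (1.11, SE 0.30, adjusted p = 0.80), Cx3cl1 at 64.4 ± 26.9 against 33.9 ± 11.6 CPM (0.96, SE 0.38, adjusted p = 0.84), Ccl7 (0.91, SE 0.44), Ccl3 at 85.9 ± 28.7 against 47.7 ± 8.91 CPM (0.88, SE 0.26, adjusted p = 0.84) and Ccl4 (0.87, SE 0.30). The levels of Ccl1 (8.15 ± 1.09 CPM) and Ccl3 (49.2 ± 13.0 CPM) after 3x4Gy, which were below 3x0Gy, thus stood near those of 1x0Gy, while Cx3cl1 after 3x4Gy (9.29 ± 5.01 CPM) lay below both mocks.

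Of 24 chemokine receptor genes, 16 passed the filter at day 5 and 13 at day 13. After 3x4Gy 2 rose (Ccr2 and Ccr7) and 1 fell (Cxcr7, the scavenging receptor ACKR3, at 0.306 ± 0.301 against 2.27 ± 0.886 CPM, -2.93, SE 0.75, adjusted p = 0.0122). Cxcr7 passed the filter on low counts only through libraries of other groups. After 1x20Gy 2 rose at day 5 (Ccr2 and Cxcr2) and 2 at day 13 (Ccr9 and Cxcr6). The medians of the receptor genes were 0.25, 0.41 and 0.16 on the log2 scale, against -0.004, 0.02 and 0.01 for all genes. Of all genes tested, 12.3%, 8.55% and 8.05% were called in the same order. Of 12 cytokine genes that induce chemokines, 7 were tested. None was called after 3x4Gy by edgeR, Il10 rose and Tgfb1 fell at day 5 after 1x20Gy (0.80, SE 0.23, adjusted p = 0.0305, and -0.96, SE 0.18, adjusted p = 0.00174), and Il1a fell at day 13 (-1.77, SE 0.37, adjusted p = 0.0091). Pf4, a platelet chemokine whose symbol lies outside the rule, was at 14.5 ± 5.28 against 60.6 ± 55.2 CPM after 3x4Gy and 3x0Gy (-2.05, SE 0.45, adjusted p = 0.0045).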

How the data were processed

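The authors deposited 1 table of gene counts per library. Per the submitters' processing notes, bcl2fastq 2.20.0.422, cutadapt 1.5, HISAT2 2.0.4 and HTSeq 0.9.1 were used with GRCm38 (mm10). The annotation and strand setting were not given in the sources used here. The 5 summary lines of the counting tool were left out, among them reads outside genes (5.65% to 32.0% of uniquely aligned reads). Totals ran from 2641229 to 7541144. The labels name no molecular identifiers.

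The test was edgeR's two-sided quasi-likelihood F test (edgeR 4.0.16 in R 4.3.3) after TMM scaling. Genes were kept by filterByExpr (counts of 10, total of 15), and p-values were adjusted by Benjamini-Hochberg over all genes tested. A gene was called at an adjusted p below 0.05. The 20 libraries of day 5 shared 1 fit, the 11 of day 13 had another, and responses on both days were compared in a fit of all 31. SE is the absolute log2 fold change divided by the square root of F. CPM in the text are scaled by TMM, except means over all libraries not divided by length. Marker covariates and outlier checks used log2 CPM with a prior of 2 counts. Fits were tested on simulated data.

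The members and lists were chosen with earlier results of these data known. All members with a mean of at least 1 CPM are described, those called against a mock or among the 3 highest with library values. Of the symbols in the lists, 7 were matched by an older symbol. DESeq2 1.42.0, limma 3.58.1 (voom), other scalings, no filter, a stricter threshold, a replicate block, a marker covariate and leaving out libraries were alternatives. Pooling the day 5 mocks was chosen after seeing the data. Gene positions are from GENCODE M21.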

Additional observations from a re-analysis of the deposited data

Results flagged for a closer look

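In 7 of 150 tests (25 genes in 6 groups of 4, 6 or 7 libraries), 1 library stood apart from the rest of its group by Dixon's test on log2 CPM, which chance does in about 1 in 20 groups. Library 1 of 3x4Gy was the low one for Ccl12, at 3.46 CPM beside 19.4 to 43.6 CPM in the other 5, and for Ccl22, at 4.70 CPM beside 15.2 to 20.0 CPM. Library 3 of 1x20Gy at day 13 was the low one for Cxcl1, at 13.7 CPM beside 36.5 to 53.8 CPM in the other 6, and for Cxcl11, at 5.09 CPM beside 7.29 to 9.23 CPM. Library 2 of 1x20Gy at day 5 was high for Ccl17, at 42.4 CPM beside 12.2 to 18.6 CPM. Library 2 of 1x20Gy at day 13 was high for Cxcl16, at 309 CPM beside 211 to 248 CPM. Cxcl3 had 3 counts (0.659 CPM) in library 3 of 1x0Gy at day 13 and 0 in the other 3.

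The response of Cxcl2 to 1x20Gy differed between the days by -1.87 on the log2 scale (day 13 minus day 5, edgeR adjusted p = 0.0451).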

How the results depend on the processing

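Cx3cl1 kept its direction in all 3 comparisons under every setting tried, and its call under each except the marker covariate. No called member changed sign under any setting. At an adjusted p below 0.01 the members called numbered 1 after 3x4Gy, 2 after 1x20Gy at day 5, 1 at day 13 and 0 for the difference between days, of 665, 425, 290 and 1 genes called in all. With the fibroblast and epithelial marker covariate all 4 counts were 0, and the covariate fits called 125, 139, 289 and 13 genes in all. The markers differed between irradiated and mock groups, so these fits cannot separate the marker cells from irradiation. For 3x4Gy the count was 3 with the 2 groups compared alone in the fit (702 genes in all). In that edgeR fit Ccl3 (adjusted p = 0.0621) and Ccl8 (adjusted p = 0.068) lost their calls. At day 13 this setting is the fit reported. Scaling by library size called 5 at day 13 (Cxcl9, Cxcl10 and Cxcl16 added), of 1533 genes. Upper quartile scaling and DESeq2 added Cxcl16 at day 13, and limma voom added Ccl17 (3 members each, of 896, 1265 and 945 genes). After 3x4Gy DESeq2 and the fit without the filter called 7 members (Ccl7 and Cxcl1 added, of 1865 and 1389 genes). Upper quartile and library size scaling called 6 (Ccl7 added, of 1560 and 1409), and limma voom called 5, with Ccl7 in place of Ccl1 (of 1419). After 1x20Gy at day 5 RLE, upper quartile and library size scaling and limma voom each called 4 members, without Ccl17. The genes called in all were 1018, 1062, 1157 and 1093. Library size scaling moved the median log2 fold change of all genes to -0.10, -0.11 and -0.23 in the 3 comparisons. The difference between days gave 0 members with upper quartile scaling or limma voom and 2 (Cxcl2 and Ccl17) with DESeq2 or without the filter (5, 3, 228 and 85 genes in all). Without 1 library in turn, counts ran from 2 to 6 after 3x4Gy, 3 to 5 after 1x20Gy at day 5, 2 to 3 at day 13 and 0 to 1 for the difference between days. The differences between regimens and between mocks stayed at 0. Among tests of members not called, 63 of 1214 had another sign than reported. With both day 5 mocks as 1 group, chosen after seeing the data, 4 members were called after 3x4Gy and 7 after 1x20Gy, of 1504 and 2053 genes, against 1477 and 1028 with each mock alone. The causes were not tested, beyond fewer libraries or a stricter threshold.

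Title numbers were not shown to pair the samples: same-number libraries of the irradiated and mock groups correlated at -0.259 to 0.403. Only for numbers 1 and 4 of 3x4Gy and 3x0Gy was the same-number irradiated library the best match of the mock library. With the number as a replicate block, 4 members were called after 3x4Gy (Ccl2, Ccl3, Ccl7 and Cx3cl1), 3 after 1x20Gy at day 5, 2 at day 13 and 0 for the difference between days, of 1223, 876, 1064 and 8 genes.

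Members near 1 CPM rest on few counts per library, which limits their precision.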
